A study of Arabidopsis thaliana with 69 samples.

Results

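The class III homeodomain leucine-zipper (HD-ZIP III) genes of Arabidopsis thaliana were followed through the reads left at their miR165 and miR166 cleavage sites. The 5 members, PHABULOSA (PHB, AT2G34710), PHAVOLUTA (PHV, AT1G30490), CORONA (CNA, AT1G52150), REVOLUTA (REV, AT5G60690) and ATHB8 (AT4G32880), were taken by name as the family that these miRNAs cleave. They are 5 of the 1597 genes for which a predicted cleavage site was listed in at least 1 of 33 nanoPARE libraries. nanoPARE sequences the 5′ ends of RNAs from small samples, so that a read starting at a slice site marks the end of a downstream cleavage product. All plants were of the Col-0 accession. Wild-type embryos were sampled at 8 stages: preglobular and globular, before cotyledons form, then early and late heart, early and late torpedo, bent cotyledon and, at the end, mature green. Globular embryos of dcl1-5, which lack most miRNAs because the DICER-LIKE1 nuclease is mutated, and roots and shoots of xrn4-5 seedlings were sampled as well. Each of these 11 groups had 3 biological replicates. The dcl1-5 embryos were picked by their abnormal shape among the progeny of heterozygous plants, and 3 mRNA-seq libraries were also made from such embryos. XRN4 is a cytoplasmic exoribonuclease that degrades downstream cleavage products, so the xrn4-5 seedlings differ from the embryos in genotype, age and tissue together and were not tested against them.

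HD-ZIP III proteins are transcription factors that give the upper (adaxial) side of lateral organs its identity, maintain the shoot meristem and pattern the vascular cylinder. miR165 and miR166 are cut from hairpin precursors by DCL1 and loaded into ARGONAUTE1, which slices the HD-ZIP III transcripts in abaxial and peripheral cells, while ARGONAUTE10 withholds the miRNAs from it. Little zipper (ZPR) proteins, which HD-ZIP III factors switch on, bind them as inactive heterodimers, and KANADI factors specify the opposite, abaxial side.

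The sequences that meet at the slice site are shown first, since all values below are reads that start there. They were read from the TAIR10.1 assembly with the RefSeq annotation. The guide strands of miR165 and miR166 differ by a single base, C17T counted from the 5′ end of miR165a-3p. Capitals mark the seed, bases 2 to 8, which all 9 annotated guide strands share.
miR165a-3p: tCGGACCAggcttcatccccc
miR166a-3p: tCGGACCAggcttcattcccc

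The 21-base target site of each gene follows, written 5′ to 3′ as the spliced transcript carries it. Capitals mark the bases that face guide positions 11 and 10, between which an Argonaute cuts.
PHB: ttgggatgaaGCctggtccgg
PHV: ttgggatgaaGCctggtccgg
REV: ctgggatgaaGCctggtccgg
ATHB8: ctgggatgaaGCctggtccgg
CNA: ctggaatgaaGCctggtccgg

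The sites of PHB and PHV were identical, and so were those of REV and ATHB8, which differ from PHB by T1C, counted from the 5′ end of the site. CNA carried T1C and G5A, and position 5 of the site faces guide position 17, the base at which the guides differ. The deposited tables named miR165a-3p as the guide for PHB, PHV, REV and ATHB8 and miR166a-3p for CNA, but a read at the cut cannot tell which guide made it. The deposited Allen score, a penalty for imperfect pairing, was 3 for all 5 sites.

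Every site lies in coding sequence and is split by an intron. It spans exons 4 and 5 in PHB (chr2:14642530-14642666, minus strand), PHV (chr1:10799330-10799445, minus), CNA (chr1:19412976-19413085, minus) and REV (chr5:24398787-24398898, plus), and exons 5 and 6 in ATHB8 (chr4:15866872-15866974, minus). In all 7 annotated transcripts of the 5 genes the junction falls after 11 bases of the site, which is the place of the cut. The introns removed there are 82 to 116 bases long. Genomic DNA and unspliced RNA therefore do not carry the site as 1 run of bases. The site is known to lie in the part that encodes the START domain, and it begins at codon 197 of PHB, 193 of PHV, 184 of CNA and REV and 183 of ATHB8. The deposited slice positions are 26 to 133 bases smaller than those in the annotated transcripts, so they count from other transcript starts and were not used to place the sites.

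Of the values of 5 genes in 33 libraries, 90 were listed above 0 in the site tables, and 83 of these passed the authors' test for a cleavage signal at an adjusted p under 0.05. Those that did not pass were PHB in the first and second preglobular libraries and PHV in the first preglobular and second globular libraries. The others were CNA in the second bent cotyledon library, and PHB and PHV in the second dcl1-5 library. Levels are given in RPM, the reads at the cut scaled to the size of the library, and a site that was not listed was taken as 0 RPM. In the 24 wild-type embryo libraries, PHB was listed in 23, PHV in 15, REV in 14, CNA in 12 and ATHB8 in 5. Another 30 genes had a listed miR165 or miR166 row, all with an Allen score of at least 4 and none significant (smallest adjusted p = 0.115).

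Each table listed 66 to 356 predicted sites, of which 2 to 58 were significant. The deposited site tables do not state the number of reads per library. Within a library, at least 94.0% of distinct values were whole multiples of 1 smallest step, to within 0.05 steps. If the step stands for the same fraction of a read throughout, depth varied 4.36-fold. On that scale the dcl1-5 libraries had 2.61 to 4.36 times the depth of the shallowest library and the wild-type globular ones 3.18 to 3.91 times. The fifth percentile of listed values lay between 0.0287 and 0.250 RPM, and many member values are close to it, so a missing site may be a level too low to detect. In the dcl1-5 mRNA-seq libraries the embryo markers WOX2, WOX8, ATML1, DRN and LEC1 summed to 344 to 389 TPM (transcript levels scaled to length and library size), the 3 endosperm markers to 3.57 to 8.78 TPM and the 4 seed coat markers to 17.2 to 20.98 TPM, with BAN at 11.1 to 16.4 TPM and TT16 at 0 to 0.173 TPM. Their part in the levels below was not tested here. The paper applied a tissue-enrichment test to mRNA-seq data and reports no significant contamination from nonembryonic seed tissue in wild-type or dcl1-5 samples.

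Cleavage reads of the family were highest in heart-stage embryos. The 5 sites together had 0.839, 0.635 and 0.696 RPM in preglobular and 5.05, 3.05 and 1.16 RPM in globular embryos, without overlap. They had 11.6, 12.7 and 4.81 RPM at the early heart stage and 7.79, 11.2 and 0.574 RPM at the late heart stage. Of the preglobular values, only those of ATHB8 in the first library and PHB in the third passed the authors' test. The third late heart library had fewer family reads than any preglobular library, although it listed 41 significant sites of all miRNAs, against 44 and 58 in the other late heart libraries. Calls that change without it are given below. Later levels were lower, with 2.89, 2.11 and 4.47 RPM at the early torpedo stage and 1.10, 0.270 and 1.28 RPM at the late torpedo stage, again without overlap. Bent cotyledon embryos had 0.533, 0.323 and 1.21 RPM, and mature green embryos 1.27, 1.60 and 0.206 RPM. The total of all listed sites, the RPM summed over all rows whether significant or not, was also highest then. Its mean was 310 RPM in late heart embryos against 148 RPM in preglobular and 116 RPM in bent cotyledon embryos. A position listed in several rows counts in it each time, while each member counts once. As a share of this total, the 5 sites ranged from 1.75% to 5.13% at the early heart stage and from 0.109% to 0.589% at the late torpedo stage. The late heart share, 0.205% to 3.43%, overlapped the globular one, 0.690% to 2.23%. In pooled embryos, a smaller number of cells that cleave these transcripts and less cleavage per cell cannot be told apart. Nor can changes in transcript level or in decay of the cleavage products, which were not analysed here in wild-type embryos.

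**Figure D1:**
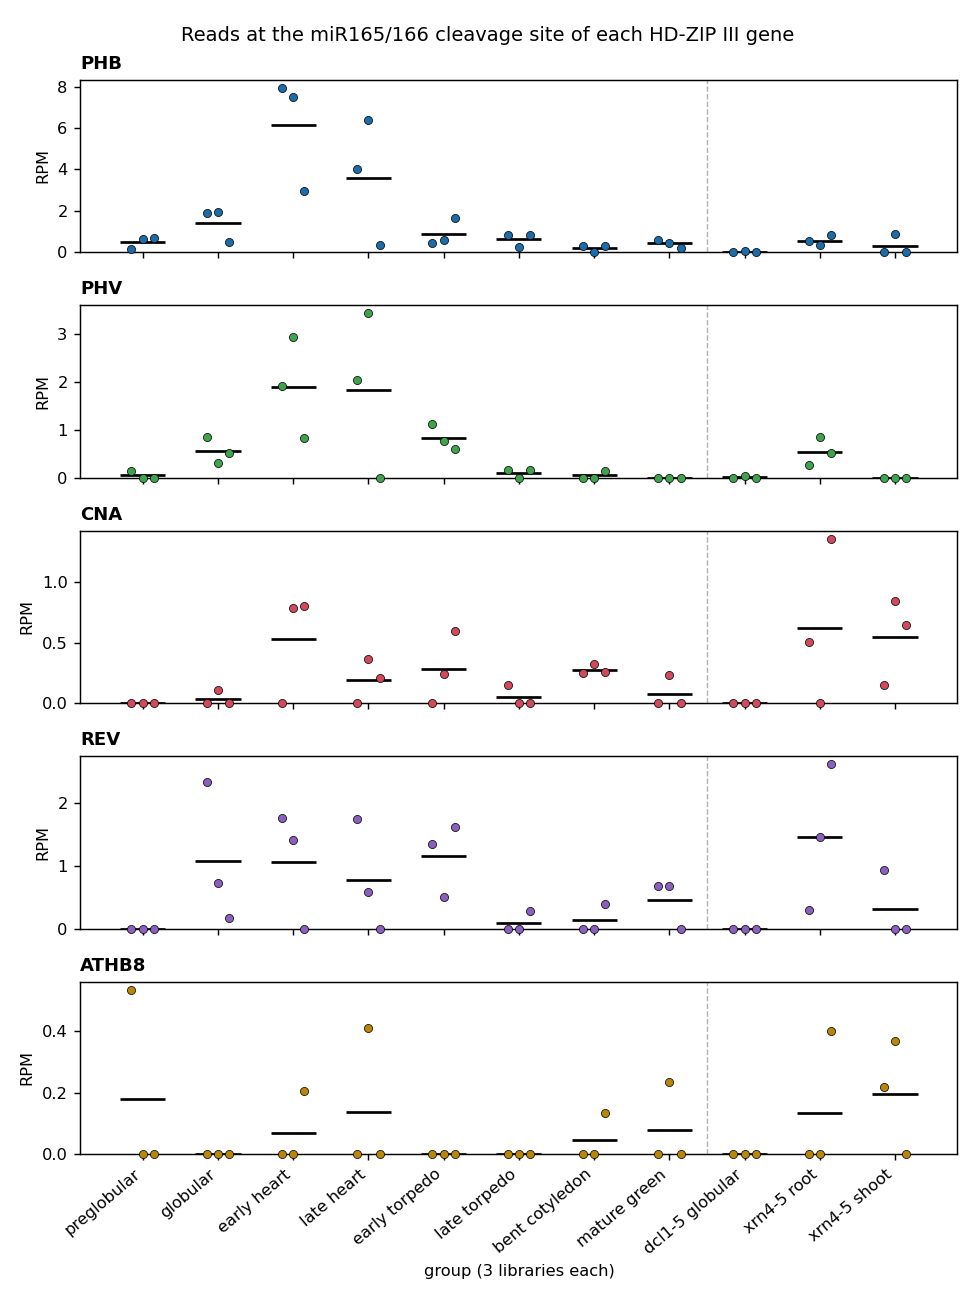
Reads at the miR165 and miR166 site of each gene (RPM, linear axis from 0, scale set per gene) in 8 wild-type stages, dcl1-5 globular embryos and xrn4-5 seedling roots and shoots; points are the 3 libraries of a group and bars their means. PHB reached 7.95 RPM at the early heart stage, whereas the highest ATHB8 value in any library was 0.536 RPM.

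PHB, which with PHV specifies adaxial cells and whose ectopic expression disturbs the basal embryo pole, carried most of these reads and was the highest of the 5 in 15 of 24 wild-type libraries. Its levels were 0.156, 0.635 and 0.696 RPM in preglobular, 1.87, 1.92 and 0.482 RPM in globular and 7.95, 7.53 and 2.96 RPM in early heart embryos. All early heart libraries lay above all globular ones, a pattern that 13.9% of 194 targets had, a target being 1 gene with 1 miRNA family. Such shares are over targets found in at least 3 of the 6 libraries compared, so a target found in 1 stage alone is without overlap by construction. The mean was 6.15 ± 2.77 RPM at the early heart stage (SD, n = 3), compared with 1.42 ± 0.816 RPM at the globular stage. Late heart embryos had 4.01, 6.38 and 0.368 RPM, and their libraries overlapped those of both neighbouring stages. Values were 0.421, 0.597 and 1.66 RPM in early torpedo and 0.810, 0.270 and 0.838 RPM in late torpedo embryos. They were 0.281, 0 and 0.287 RPM in bent cotyledon and 0.600, 0.455 and 0.206 RPM in mature green embryos, which overlap the preglobular range. By stage means, PHB ran from early heart, late heart, globular, early torpedo, late torpedo, preglobular and mature green to bent cotyledon, and each neighbour in this order overlapped the next.

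PHV, the closest paralog of PHB, also had its highest mean at the early heart stage, and it lay above PHB in 1 globular and 2 early torpedo libraries of wild type. It was listed in 1 preglobular library, at 0.147 RPM, and had 0.845, 0.305 and 0.520 RPM in globular embryos. The preglobular and globular libraries did not overlap, an increase that 10.3% of 145 targets had. PHV then had 1.91, 2.92 and 0.833 RPM at the early heart and 2.04, 3.42 and 0 RPM at the late heart stage. At the early torpedo stage it had 1.12, 0.762 and 0.605 RPM, which the late torpedo values of 0.149, 0 and 0.157 RPM did not reach, a decrease that 6.42% of 218 targets had. PHV was listed once in bent cotyledon embryos, at 0.143 RPM, and in no mature green library. Across the 24 libraries, PHB and PHV were the most alike pair of the 10 within the family (Pearson's r = 0.87, Spearman's rho = 0.73, on log2(RPM + 1)); the points share library depth, and r is given as a description.

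REV, which acts in meristems and vascular bundles, had a flatter course from the globular to the early torpedo stage. It was listed in no preglobular library and in all 3 globular libraries, at 2.34, 0.722 and 0.160 RPM. It had 1.77, 1.41 and 0 RPM in early heart, 1.75, 0.591 and 0 RPM in late heart and 1.35, 0.508 and 1.61 RPM in early torpedo embryos. These 4 stages overlapped throughout. REV was listed in 1 late torpedo library, at 0.281 RPM, below all early torpedo values, and in 1 bent cotyledon library, at 0.392 RPM. Mature green embryos had 0.671, 0.674 and 0 RPM. REV made up 34.7% of the summed mean level at the globular stage and 36.6% at the early torpedo stage, but 10.95% at the early heart stage, where PHB made up 63.4%.

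CNA, which restrains meristem size and acts in the vasculature, was the only member listed in all 3 bent cotyledon libraries. Its levels there were 0.252, 0.323 and 0.256 RPM, and the second did not pass the authors' test (adjusted p = 0.0770). By the step between values, the first and second libraries were 1.34 and 1.31 times as deep as the shallowest library. The third was 3.18 times as deep, and at this stage it alone listed PHV, REV and ATHB8. Late torpedo embryos had 0.145, 0 and 0 RPM and mature green embryos 0, 0.232 and 0 RPM, so neither neighbouring stage reached the bent cotyledon values. An increase without overlap from late torpedo to bent cotyledon was seen for 3.25% of 154 targets, and a decrease to mature green for 13.5% of 96. According to the paper, input for every stage except bent cotyledon came from cDNA made for an earlier transcriptome study. Stage and cDNA source therefore cannot be told apart where bent cotyledon embryos are compared. CNA was absent from the preglobular tables and listed once, at 0.108 RPM, in globular embryos. It had 0, 0.785 and 0.806 RPM in early heart, 0, 0.368 and 0.206 RPM in late heart and 0, 0.242 and 0.595 RPM in early torpedo embryos. Replicate 1 was thus the library without CNA at each of these 3 stages.

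ATHB8, which marks and promotes procambium, was rarely seen. It was listed at 0.536 RPM in 1 preglobular library, where it was the highest of the family. Single libraries of the early heart (0.206 RPM), late heart (0.413 RPM), bent cotyledon (0.133 RPM) and mature green stages (0.234 RPM) also listed it, and the globular, early torpedo and late torpedo tables did not. At this depth no stage could be told from another for ATHB8.

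Variation over the 8 stages was tested with limma's moderated F test on log2(RPM + 1) over the 603 targets found in at least 3 of the 24 libraries. PHB (adjusted p = 0.000438) and PHV (adjusted p = 0.000884) changed across stages. Against these 2 of 5 members, 7.79% of all targets passed. When only the 76 targets significant in at least 2 replicates of any group were tested, 31 passed, among them PHB and PHV. The 2 of 5 members are close to that share. Over the 603 targets, REV (adjusted p = 0.160), CNA (adjusted p = 0.316) and ATHB8 (adjusted p = 0.818) did not pass. Without the third late heart library, PHB and PHV still passed, and leaving out any single library gave adjusted p-values of 2.61e-06 to 0.00599 for PHB and 5.70e-07 to 0.00478 for PHV. CNA passed only without the first early heart library (adjusted p = 0.0284) and REV only without the third (adjusted p = 0.0335).

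The study groups the stages into phases, and these were compared next. Between the 5 transition stages, early heart to bent cotyledon, and the 2 earlier stages, no member passed limma at an adjusted p under 0.05, compared with 4.48% of the 603 targets (3.32% higher and 1.16% lower). At an unadjusted p under 0.05, 2 members and 77 targets passed. The log2 changes were 0.41 for PHV (standard error 0.19, adjusted p = 0.319), 0.40 for PHB (standard error 0.26, adjusted p = 0.548) and 0.29 for CNA (standard error 0.11, adjusted p = 0.188). REV and ATHB8 had 0.14 and -0.04. The median of the 5 was 0.29, and that of all targets 0.02. PHV passed without the third late heart library (log2 change 0.54, adjusted p = 0.0210), and CNA without the first early heart library (0.34, adjusted p = 0.0401). With a pseudocount of 0.1 RPM, CNA had 1.27 (adjusted p = 0.154) and PHV 0.84 (adjusted p = 0.528).

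From transition to mature green embryos, again no member passed limma, while 4.64% of targets did (2.99% lower and 1.66% higher). At an unadjusted p under 0.05, 2 members and 85 targets passed. PHB had a log2 change of -0.79 (standard error 0.34, adjusted p = 0.250) and PHV one of -0.75 (standard error 0.25, adjusted p = 0.0709). Without the third late heart library both passed, at -0.93 (adjusted p = 0.0380) and -0.88 (adjusted p = 0.00203), and without the third early heart library PHV did (-0.81, adjusted p = 0.0421). PHV also passed with a pseudocount of 0.1 RPM (-2.37, adjusted p = 0.0254), where PHB had -1.21 (adjusted p = 0.442). CNA had -0.21, REV -0.10 and ATHB8 0.04. The median was -0.21 for the family and -0.07 for all targets.

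The guide strands that cut these sites were measured by sRNA-seq in the same stages and were at their highest after the stage with most family cleavage reads. miR165 and miR166 guides together had 419 ± 216 RPM (SD, n = 3) in preglobular, 720 ± 163.7 RPM in globular, 1839 ± 217 RPM in early heart, 2844 ± 213 RPM in late heart and 8313 ± 4498 RPM in early torpedo embryos. The highest mean, 10089 ± 1633 RPM, was that of bent cotyledon embryos, and late torpedo (9964 ± 3361 RPM) and mature green embryos (8599 ± 1176 RPM) were close to it. The third late heart library stood close to its replicates in guides, at 2676 RPM against 3083 and 2772 RPM.

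**Figure D2:**
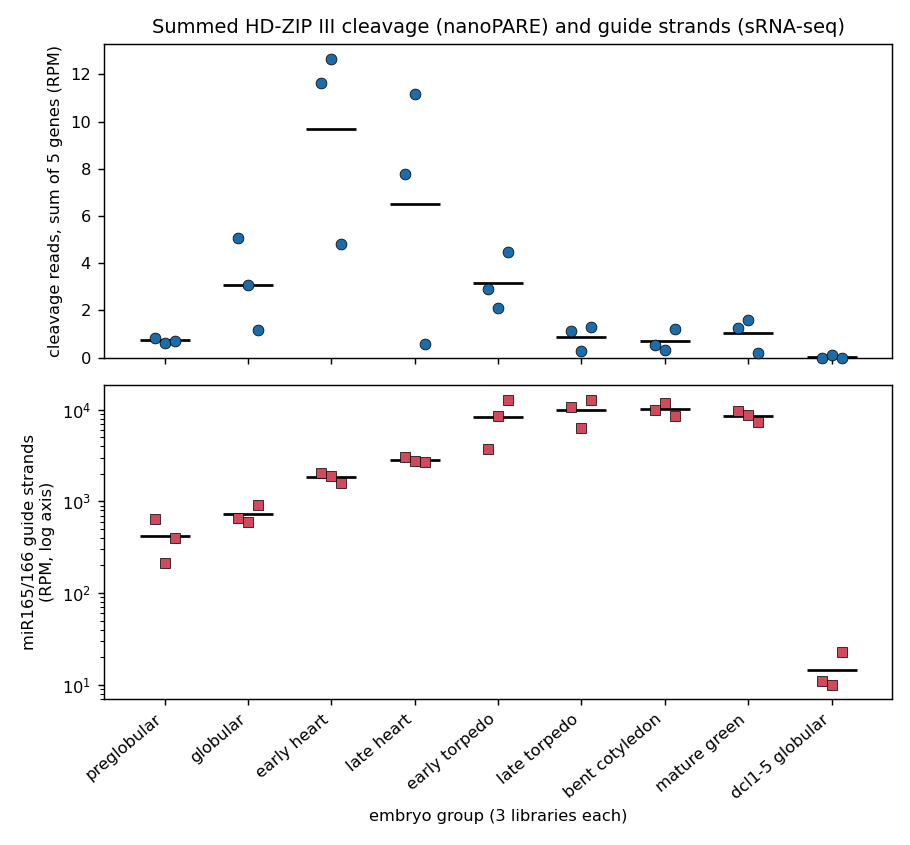
Summed cleavage reads of the 5 genes (top, RPM, linear axis from 0) and miR165 and miR166 guide strands (bottom, RPM, log axis) in embryos of 8 wild-type stages and dcl1-5; points are libraries and bars the means of 3. The mean cleavage level peaked at 9.70 RPM in early heart embryos, whereas the mean guide level was 1839 RPM there and highest, at 10089 RPM, in bent cotyledon embryos.

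In dcl1-5 globular embryos, where miR165 and miR166 guides had 14.6 ± 7.004 RPM (SD, n = 3) against 720 ± 163.7 RPM in wild type, hardly any family cleavage was seen. The 5 sites had 0, 0.0883 and 0 RPM in dcl1-5, and 5.05, 3.05 and 1.16 RPM in wild-type globular embryos. The dcl1-5 reads were those of PHB and PHV in the second library. Neither passed the authors' test for a cleavage signal (adjusted p = 0.512 for each). PHB had 1.87, 1.92 and 0.482 RPM in wild type and 0, 0.0579 and 0 RPM in dcl1-5. PHV had 0.845, 0.305 and 0.520 RPM against 0, 0.0304 and 0 RPM. REV had 2.34, 0.722 and 0.160 RPM and was listed in no dcl1-5 library. CNA, found in 1 of the 6 libraries, and ATHB8, found in none, were not tested. The other 3 entered the test through their 3 wild-type libraries, so that a decrease was built into which members could be tested, and their lack of overlap is given as a description beside the 32.8% of 125 targets that had it in this direction.

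The decrease passed the test for PHB alone (log2 change -1.18, standard error 0.33, adjusted p = 0.0263), where 13.6% of targets passed (12.8% lower and 0.8% higher). As the members entered through their wild-type libraries, the filter favoured this direction, and their p-values are given as a description. REV (-0.91, standard error 0.37, adjusted p = 0.111) and PHV (-0.61, standard error 0.27, adjusted p = 0.135) did not pass. These changes are on the log2(RPM + 1) scale, which understates those of low levels. With a pseudocount of 0.1 RPM they were -3.51 for PHB (adjusted p = 0.0127), -3.01 for REV (adjusted p = 0.0533) and -2.50 for PHV (adjusted p = 0.0520). The PHB call was lost without the first or the second globular library (adjusted p = 0.121 and 0.0968) or without the first or the second dcl1-5 library (adjusted p = 0.0527 and 0.0728). It was also lost when levels were scaled to the total of all listed sites, which raised the median change of all targets by 0.12 (log2 change of PHB -1.11, adjusted p = 0.176). The third dcl1-5 table was the shortest, with 66 rows.

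Transcripts of all 5 genes were present in dcl1-5 embryos, in an order unlike that of their cleavage reads in wild type. TPM counts transcripts per length and can be compared between genes. PHB had 190, 200 and 249 TPM and ranked between 708 and 847 among 37686 genes. CNA followed with 161, 143 and 202 TPM, and PHV with 97.9, 108 and 153 TPM. The ranges of PHB and CNA overlapped, but within each library PHB was above CNA by 1.18 to 1.40 times and CNA above PHV by 1.32 to 1.65 times. REV had 18.6, 20.1 and 20.3 TPM, and PHV was 5.26 to 7.53 times higher. ATHB8, at 4.43, 2.44 and 7.96 TPM, was the lowest. For comparison, the 17494 genes with a mean of at least 1 TPM had a median of 10.5 TPM.

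REV and CNA changed places between the measures. In wild-type globular embryos, REV made up 34.7% of the summed mean cleavage level and CNA 1.17%, while in dcl1-5 CNA transcripts were above those of REV in every library. The 2 measures come from different genotypes, and wild-type transcript levels were not analysed here. The CNA site was listed on the transcript AT1G52150.3, which held 0.724% to 1.26% of CNA's TPM in dcl1-5, against 69.1% to 75.4% for AT1G52150.1. The site sequence is the same in both, so a read there does not identify the transcript.

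**Figure D3:**
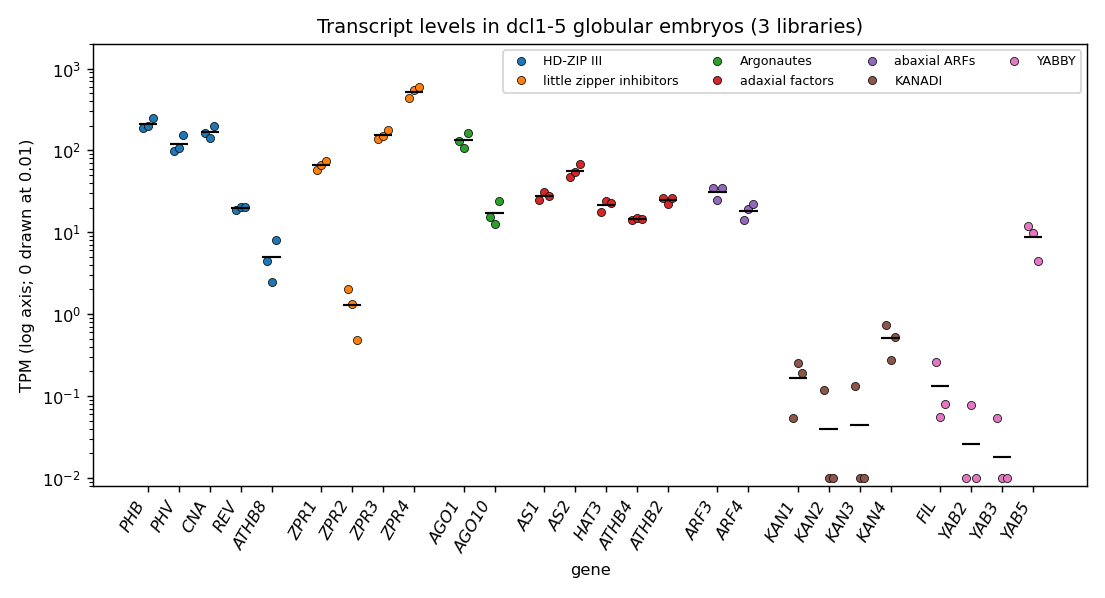
Transcript levels (TPM, log axis, 0 drawn at 0.01) of the HD-ZIP III genes and of other polarity genes in dcl1-5 globular embryos; points are the 3 mRNA-seq libraries and bars their means. PHB, CNA and PHV lie between 97.9 and 249 TPM, and the 4 KANADI genes below 1 TPM.

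Among genes that act with the family, the little zipper inhibitors were high in dcl1-5. ZPR4 had 433, 546 and 591 TPM, ZPR3 138, 151 and 180 TPM and ZPR1 57.2, 66.5 and 74.6 TPM, while ZPR2 had 0.480 to 2.02 TPM. AGO1, the slicer, had a mean of 134 TPM and AGO10 of 17.3 TPM. Of the adaxial factors, AS2 had the highest mean, 56.4 ± 10.4 TPM (SD, n = 3), and ATHB4, a class II HD-ZIP factor, the lowest, 14.6 ± 0.532 TPM. Abaxial genes were split. ARF3 (31.2 ± 5.48 TPM) and ARF4 (18.4 ± 4.12 TPM), auxin response factors, were well detected. None of the 4 KANADI genes reached a mean of 1 TPM; the highest was KAN4, at 0.512 ± 0.230 TPM. Of 4 YABBY genes, YAB5 alone did, at 8.79 ± 3.90 TPM. The 6 root and vascular regulators ranged from PLT2, a factor of the root pole, at 3.49 ± 0.819 TPM to MP, an auxin response factor needed for the embryonic root, at 62.4 ± 18.3 TPM. Of the auxin synthesis genes, TAA1 had 120 ± 1.65 TPM and YUC5 0.344 ± 0.296 TPM.

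Of these 29 genes, AGO1 (miR168) and TPL (miR5024), a corepressor, had a significant site in any library, AGO1 in 3 and TPL in 1. None passed limma in a comparison in which it was tested. The AGO1 site had adjusted p = 0.316 across stages, 0.441 for transition against earlier stages, 0.313 for mature green and 0.889 for root against shoot.

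In xrn4-5 seedlings the family had 1.57, 2.65 and 5.71 RPM in roots and 1.30, 2.10 and 0.643 RPM in shoots. PHV was listed in all 3 root libraries, at 0.257, 0.851 and 0.513 RPM, and in no shoot library. Since it met the filter through the root libraries alone, its lack of overlap was fixed by that filter and is only described; 22.8% of 101 targets lacked overlap in this direction. REV had 0.293, 1.46 and 2.62 RPM in roots and 0.933, 0 and 0 RPM in shoots. PHB had 0.518, 0.344 and 0.817 RPM in roots and 0, 0.886 and 0 RPM in shoots. CNA was the only one listed in every shoot library, at 0.149, 0.847 and 0.643 RPM, and had 0.504, 0 and 1.36 RPM in roots. ATHB8 was listed in 1 root library, at 0.402 RPM, and 2 shoot libraries, at 0.220 and 0.368 RPM. REV was the largest part of the summed mean in roots (44.0%) and CNA in shoots (40.5%).

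No member passed limma between root and shoot, while 18.8% of 101 targets did (9.9% higher and 8.91% lower in roots). At an unadjusted p under 0.05, 2 members and 33 targets passed. The log2 changes, root minus shoot, were 0.86 for REV (standard error 0.38, adjusted p = 0.0870), 0.61 for PHV (standard error 0.26, adjusted p = 0.0781) and 0.32 for PHB (95% interval -0.33 to 0.98). Those of CNA and ATHB8 were 0.01 (95% interval -0.70 to 0.72) and -0.08 (95% interval -0.48 to 0.31). The family median was 0.32, against 0.17 for all targets. REV passed without the first root library (1.26, adjusted p = 0.0323), and PHV with a pseudocount of 0.1 RPM (2.57, adjusted p = 0.0386). PHV entered the test through its root libraries alone, so the direction of its change was fixed by the filter. Its p-values are therefore given as a description.

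Among 59 targets of other families that were significant in at least 2 replicates of a wild-type stage, the 5 whose levels were most like the summed HD-ZIP III level were chosen by Pearson's r of log2(RPM + 1) over the 24 libraries. They were AT1G63130, named TAS8 in the tables and cut by miR161 (r = 0.82), the cotyledon boundary genes CUC1 (r = 0.77) and CUC2, listed as ANAC098 (r = 0.74), both cut by miR164, and the auxin response factors ARF17 (r = 0.73) and ARF10 (r = 0.73), cut by miR160. The points share library depth, so r is a description. CUC1 had its highest mean, 1.53 ± 0.571 RPM (SD, n = 3), in early heart embryos, and ANAC098 had 1.67 ± 0.639 RPM there and 1.74 ± 1.27 RPM in late heart embryos. ARF17 (5.95 ± 1.85 RPM) and ARF10 (6.78 ± 3.13 RPM) reached levels like that of PHB at the early heart stage. In mature green embryos ARF10 still had 2.55 ± 1.54 RPM.

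**Figure D4:**
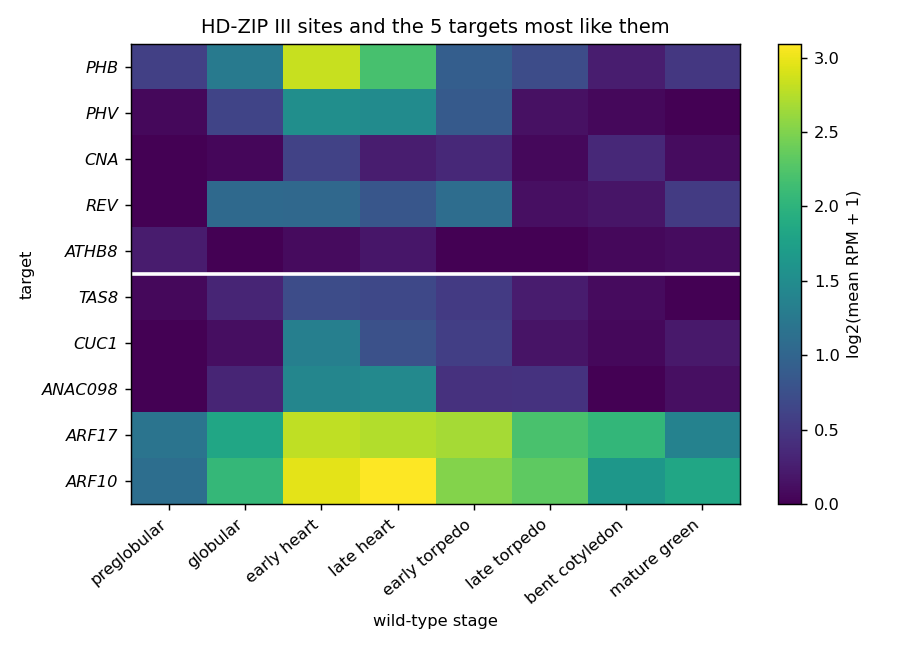
Mean level by wild-type stage, as log2(mean RPM + 1) on the colour scale, for the 5 HD-ZIP III sites (above the white line) and the 5 targets of other families most like their sum. PHB and CUC1 have their highest means at the early heart stage (6.15 and 1.53 RPM), as do the other members except REV and ATHB8.

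Rows that paired a member with another miRNA were rare and none passed the authors' test. miR408-5p on REV appeared in 3 libraries, at 0.104 to 0.254 RPM (Allen score 6, adjusted p = 0.770 to 0.995). ATHB8 had a row for miR858a (0.229 RPM), and PHV had one for miR5640 (0.242 RPM) and one for miR841a-3p (0.377 RPM), each in 1 library.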

How the data were processed

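Reads were trimmed by the authors with cutadapt and aligned to TAIR10 with STAR, the tools that the submitters' processing notes name. In the nanoPARE data they removed capped 5′ ends before running EndCut. Its deposited tables give, for each predicted site, the RPM at the cut, the Allen score, the slice position as a transcript coordinate and a p-value adjusted within that library. The authors' fold values were not used. The deposited mRNA-seq tables hold estimated counts and TPM per transcript from kallisto. The deposited sRNA-seq tables hold expected counts, with shared reads divided between loci, and RPM per miRNA; the 9 guide strands were summed.

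A target's level in a library was that of its highest row, and unlisted sites were 0. Levels were compared as log2(RPM + 1) by limma 3.58.1 (R 4.3.3) with trend = TRUE. The Benjamini-Hochberg adjustment covered all targets above 0 RPM in at least 3 libraries of the comparison, and 0.05 was the threshold. TPM was summed per gene and not tested. Replicates are pools collected on different days. Same-numbered libraries did not deviate together (r from -0.17 to 0.24), so no replicate block was used. Alternatives were a pseudocount of 0.1 RPM, which matches the scale on which the study plots cleavage products, other filters, summed positions, no trend, the block, leaving out each library and, added after seeing the data, scaling to the total of listed sites. In the main setting, the fits of mutant against wild type, across stages and of root against shoot were tested on simulated data. Fits between phases and those under the alternatives were not. Sequences came from RefSeq on TAIR10.1, in which 7 of 7 member transcripts have their deposited length.

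Named genes are the 5 members, the genes of fixed pathway and marker lists, and the 5 most alike targets. Members and lists were chosen with earlier results of these data known. Leaf, floral bud and dilution sRNA libraries were not used here. Python 3.11.15 served for the remaining steps, with pandas 2.3.3, numpy 2.4.6 and matplotlib 3.10.9.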

Additional observations from a re-analysis of the deposited data

How the results depend on the processing

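Low read numbers limit these results: many member values stand near the lowest listed levels, and each group has 3 pools. In dcl1-5 against wild type, the number of members passing limma was 0 without the filter on rarely found targets (PHB adjusted p = 0.0550), with only targets significant in at least 2 replicates of any group (0.0553) and after scaling to the total of listed RPM (0.176), and 2 without the intensity trend, which added PHV (0.0441); all targets passing were then 11, 10 and 10 for the first 3 settings, against 17. The scaling changed the split of higher and lower targets from 1 and 16 to 1 and 9. Over the 8 stages PHB and PHV passed under every setting run. All targets passing went from 47 of 603 to 31 of 76 with only significant targets and to 31 with scaling. REV joined with a minimum mean of 0.5 RPM (0.0456). For transition against earlier stages, 15 targets passed without the filter and 17 with that minimum, against 27, and scaling turned the split from 20 higher and 7 lower to 10 and 10. For mature green against transition, 1 member passed with a pseudocount of 0.1 RPM (PHV, log2 change -2.37, adjusted p = 0.0254) and 2 with the minimum mean (PHB 0.0255, PHV 0.0137); 13 targets passed among significant ones, against 28, scaling turned the split from 10 higher and 18 lower to 16 and 5, and REV had 0.18 in place of -0.10. Between root and shoot, 1 member passed with the pseudocount of 0.1 RPM (PHV, 2.57, adjusted p = 0.0386); 10 targets passed without the filter and 3 among significant ones, against 19, scaling turned the split from 10 and 9 to 6 and 12, and CNA had -0.33 with that pseudocount and -0.15 with scaling. Under the main filter, PHV entered the root and shoot test through its root libraries alone. The members tested in dcl1-5 entered through their wild-type libraries. The filter thus favoured the directions seen, and these member calls are given as a description. The cause of the differences between settings was not tested.

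Leaving out 1 library at a time gave 0 to 1 members and 6 to 17 targets for dcl1-5, 2 to 3 members and 34 to 56 targets over the stages, 0 to 1 and 14 to 31 for transition, 0 to 2 and 14 to 37 for mature green, and 0 to 1 and 5 to 14 for root against shoot. A few log2 changes near 0 changed sign: REV ran from -0.036 to 0.34 and ATHB8 from -0.092 to 0.063 for transition, REV from -0.22 to 0.15 and ATHB8 from -0.063 to 0.089 for mature green, and CNA from -0.31 to 0.31 for root against shoot. A replicate block changed no member's call: 1 member passed for dcl1-5 and 2 over the stages, and 25 targets passed for dcl1-5, against 17.

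In dcl1-5 mRNA, estimated counts as CPM, which are not divided by length, were 637 for PHB, 349 for PHV, 564 for CNA, 66.7 for REV and 14.7 for ATHB8, in the same order as TPM. Over nuclear transcripts alone REV had 21.8 TPM. Leaving out a library gave 195 to 224 TPM for PHB, 103 to 130 for PHV, 152 to 181 for CNA, 19.4 to 20.2 for REV and 3.44 to 6.19 for ATHB8.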
